A study of Mus musculus with 2 samples.

Results

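The neural crest and mesenchymal transcription factors described here are 10 genes, Snai1, Snai2, Twist1, Zic1, Zic2, Sox4, Sox9, Sox11, Pax3 and Tfap2a. They were chosen by name, and every probe set annotated to exactly 1 of these symbols was taken, which gave 30 of the 45037 probe sets used. They were measured in the whole RNA of Neuro2a cells, an established mouse neuroblastoma line, transfected either with an siRNA directed at Tmem132a, which encodes a single-pass membrane protein and is also called mKIAA1583, or with a non-specific control siRNA. Total RNA of each culture was read on 1 Affymetrix Mouse Genome 430 2.0 array, so each group has 1 array. Nothing can therefore be said of the error between cultures, which limits precision throughout, and no test was run. Differences are given as log2 ratios, Tmem132a siRNA over control siRNA. The time of harvest and the sequences of the siRNAs are not given in the sources used here.

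The neural crest is a population of embryonic cells that forms at the border of the neural plate, leaves the neural tube and gives rise to sympathetic neurons, glia, pigment cells and facial skeleton. Its regulators, worked out largely in frog and chick embryos beside the mouse, act in tiers. Pax3, Zic1, Zic2 and Tfap2a are border factors, Snai1, Snai2, Twist1 and Sox9 act when crest cells are specified and become mesenchymal, and Sox4 and Sox11 support survival and neuronal differentiation of crest derivatives. Neuroblastoma arises from the sympathetic branch of this lineage.

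Tmem132a had a signal of 435.6 on the Tmem132a siRNA array and 1825.5 on the control siRNA array, which left 23.9% of the control signal. The free text of the knock-down sample names the control siRNA, against its own title, and the Tmem132a signal follows the title. Markers of sympathetic neuroblasts were present on both arrays: all 11 of those analysed passed the signal filter, among them Phox2a (4666.5 and 5143.9), Hand2 (13190 and 15242) and Chgb (8863.3 and 9066) on the Tmem132a siRNA and control siRNA arrays. All 11 had a log2 ratio below 0, with a median of -0.16 and 0 of them at least 1.5-fold lower. Over all genes with a value, 48.2% were below 0 and 9.11% at least 1.5-fold lower, with a median of 0.02. Markers of other cells were mostly under the filter: 2 of 12 fibroblast genes passed it, 1 of 8 glial and melanocyte genes, 1 of 9 epithelial and endothelial genes and 2 of 7 immune genes. The summed brightest signals of the fibroblast list were 3682 on the Tmem132a siRNA array and 11595 on the control siRNA array, mostly from Acta2, and the defining collagens Col1a1, Col1a2 and Col3a1 were each under the filter. The other sums, each as Tmem132a siRNA and then control siRNA, were 635.66 and 531.44 for the glial and melanocyte list, 405.27 and 266.12 for the epithelial and endothelial list and 533.86 and 366.93 for the immune list. The part of such signals in the results below was not tested.

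The upstream sequences of the 3 factors on which the results most turn, Sox11 and Sox4 for their many probe sets and Zic1 for the lowest gene ratio among those compared, are shown here. Each run is the 250 bases before the start annotated by RefSeq on GRCm38.p6, 5′ to 3′ on the strand of the gene, and capitals mark CCAAT boxes on either strand.
Sox11, chr12:27342719-27342968, minus strand: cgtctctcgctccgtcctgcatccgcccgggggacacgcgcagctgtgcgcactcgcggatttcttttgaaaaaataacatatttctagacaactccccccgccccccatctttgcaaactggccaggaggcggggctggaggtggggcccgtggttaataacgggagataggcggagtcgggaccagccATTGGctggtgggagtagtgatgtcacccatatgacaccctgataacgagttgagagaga
Sox4, chr13:28953700-28953949, minus strand: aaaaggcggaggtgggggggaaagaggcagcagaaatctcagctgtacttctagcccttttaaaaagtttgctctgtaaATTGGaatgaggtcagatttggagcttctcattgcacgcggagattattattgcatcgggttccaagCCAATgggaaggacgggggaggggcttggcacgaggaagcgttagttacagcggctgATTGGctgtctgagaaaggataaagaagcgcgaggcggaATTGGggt
Zic1, chr9:91365769-91366018, minus strand: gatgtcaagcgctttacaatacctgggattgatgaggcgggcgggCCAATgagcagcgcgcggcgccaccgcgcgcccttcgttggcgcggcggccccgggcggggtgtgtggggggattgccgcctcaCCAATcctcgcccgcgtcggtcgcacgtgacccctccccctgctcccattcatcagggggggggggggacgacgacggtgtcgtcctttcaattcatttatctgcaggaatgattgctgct
A window was found for 6 of the 10 factors, and Tfap2a had windows at different starts, none with a CCAAT box. Factors are counted here as genes, while the shares of all windows count windows. The CCAAT box was present in 5 of the 6 factors (Snai1, Zic1, Sox11, Twist1 and Sox4), against 33.8% of all 32851 windows of this length, and Sox4 held 4 copies. The AP-2 motif GCCNNNGGC, the kind of site that Tfap2a binds, was found in Snai1, Zic1 and Sox11 and in 13.7% of all windows. In Snai1 and Sox11 it overlaps the CCAAT box, and in Zic1 it overlaps a GC box. The E-box CAGGTG, a site of Snail factors, was found in Snai1, 126 bases before its start, and in 17.2% of all windows, and the Sox core motif ACAAAG in Snai1 and in 16.5%. The GC box GGGCGG was present in Zic1, Sox11, Twist1 and Tfap2a and in 32.7% of all windows, and TATAAA in Twist1 and in 12.4%. All motifs were sought on both strands, and a match describes letters, not binding.

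Among the 10 factors, 5 were bright enough to compare: Sox4, Sox11, Sox9, Snai2 and Zic1. A probe set was compared when its signal, averaged over the arrays, reached 77.2, the median of all probe sets, and 16 of the 30 probe sets did. Averaging the log2 ratios of those probe sets gave each gene its value. On RNA of whole cultures, fewer cells that express a gene and less RNA per cell cannot be told apart. By gene value, Zic1 and Snai2 were at least 1.5-fold lower on the Tmem132a siRNA array, Sox11 was lower by less, and Sox9 and Sox4 lay close to 0. None of the 5 reached 1.5-fold higher, and none reached 2-fold either way. Of all 10678 genes with a value, 9.11% were 1.5-fold or more lower and 8.82% 1.5-fold or more higher, and at 2-fold or more these shares were 2.44% lower and 2.1% higher. The median of the 5 factors was -0.44, against 0.02 over all genes, and 4 of the 5 were below 0, as were 48.2% of all genes. With no filter, where all 10 factors had a value, the median was -0.19, and it was -0.23 when each gene was read by its brightest probe set. The 1.5-fold calls of Zic1 and Snai2 also depended on the treatment of low signals, as given beside each gene.

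**Figure D1:**
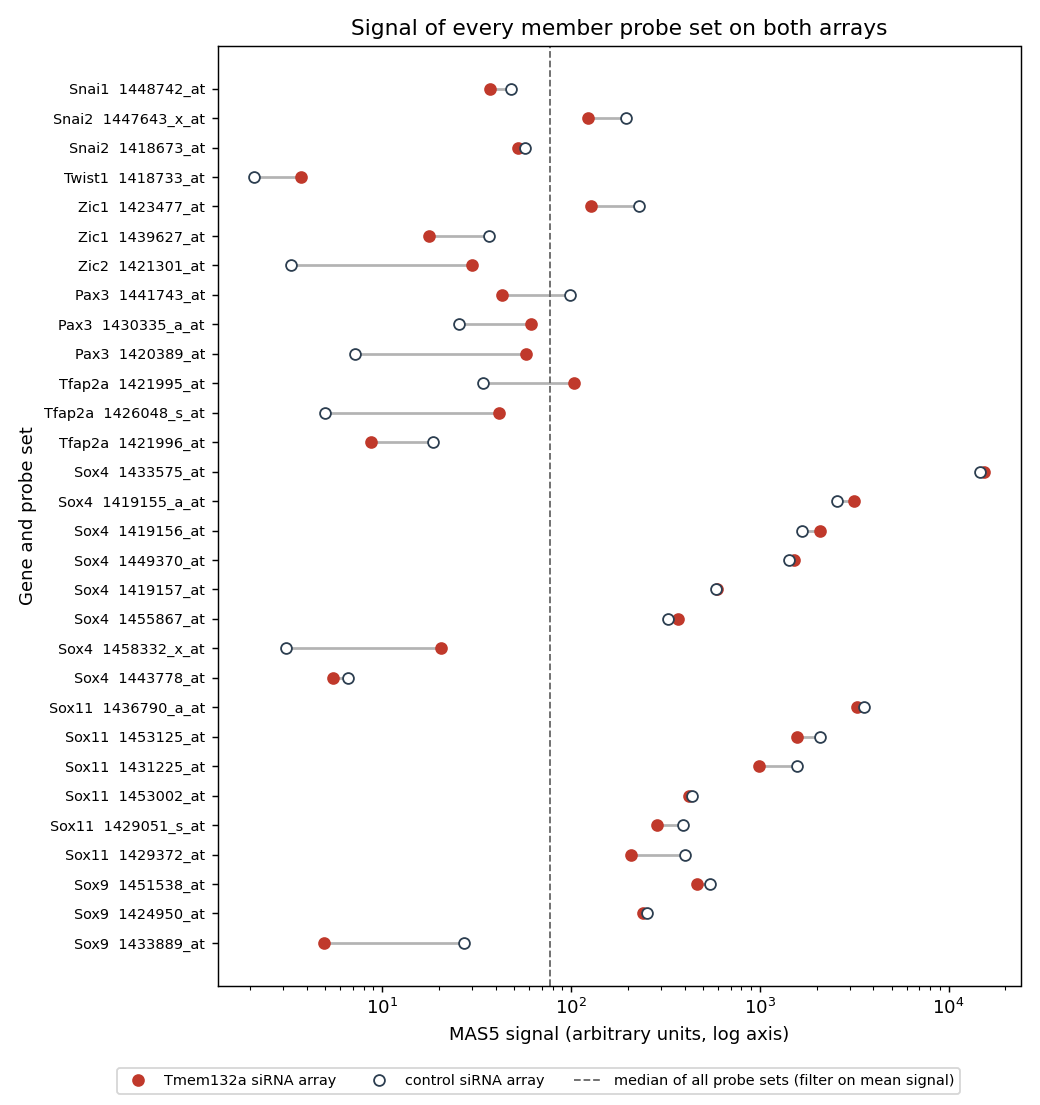
MAS5 signal (log axis) of all 30 probe sets of the 10 factors, 1 row per probe set, with the Tmem132a siRNA array as filled points and the control siRNA array as open points, and the dashed line at the filter of 77.2. Every Sox11 pair has the filled point on the left, the 6 bright Sox4 pairs have it on the right, and most probe sets of Pax3, Tfap2a, Zic2, Twist1 and Snai1 lie left of the line.

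Sox4 and Sox11 are the SoxC factors, closely related HMG-box proteins that act in part redundantly in the embryo. They lay on opposite sides of 0. All 6 probe sets of Sox11 were lower on the Tmem132a siRNA array, and all 6 probe sets of Sox4 past the filter were higher. The gene ratio of Sox11 was -0.44, or 1.36-fold lower, with an SD of 0.33 over its 6 probe sets, and that of Sox4 was 0.16, or 1.12-fold higher, with an SD of 0.13 over 6. The SDs measure technical spread, since all probe sets of a gene read the same pair of RNA samples.

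The probe sets of Sox11 differed in size. The brightest, 1436790_a_at, had 3282.1 on the Tmem132a siRNA array and 3583.2 on the control siRNA array, a log2 ratio of -0.13. The set 1453125_at had 1577.5 with the Tmem132a siRNA and 2085.3 with the control siRNA (-0.40), and 1431225_at had 988.9 and 1569.5 in the same order (-0.67). These bright sets thus ran from a small difference to 1.59-fold. Among the dimmer sets, 1453002_at had 421.5 with the Tmem132a siRNA and 440.1 with the control siRNA (-0.06). The set 1429051_s_at, of a type that can share sequence with other transcripts, had 285.9 with the Tmem132a siRNA and 390.1 with the control siRNA (-0.45). The set 1429372_at had 208.9 with the Tmem132a siRNA and 402.6 with the control siRNA (-0.95), the lowest ratio of the 16. Among 8244 probe sets whose mean signal lay within 2-fold of that of 1429372_at, 3.89% had a ratio as low or lower, while for the brightest Sox11 set the share was 34.4% of 3526. Pairs of Sox11 sets annotated to 1 source sequence also differed, 1453002_at from 1429051_s_at (-0.06 and -0.45) and 1453125_at from 1429372_at (-0.40 and -0.95). Whether the sets of a pair read the same stretch of that sequence is not known here. Across all genes, 14.4% had a gene ratio as low as that of Sox11.

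Sox4 was measured by 8 probe sets, and 4 of these are annotated to 1 source sequence. Its brightest set, 1433575_at, had 15402 on the Tmem132a siRNA array and 14751 on the control siRNA array, a log2 ratio of 0.06. The largest differences were in 1419156_at, with 2089.7 against 1676 (0.32), and in 1419155_a_at, with 3157.7 against 2552.9 (0.31), Tmem132a siRNA against control siRNA. Both belong to the 4 annotated to 1 source sequence. The other sets past the filter were 1449370_at, with 1523.7 against 1424.5 (0.10), 1455867_at, with 369.6 against 325.6 (0.18), and 1419157_at, with 591.7 against 584.7 (0.02). The differences ran one way but were small: of probe sets of like signal, 19.4% had a ratio as high as that of 1419155_a_at, and 35.6% of all genes had one as high as the gene ratio of Sox4. The 2 remaining sets, 1443778_at and 1458332_x_at, had signals of at most 20.6 and were not compared. The gene ratio of Sox11 minus that of Sox4 was -0.61. It stayed between -0.66 and -0.54 in 10 of the 11 alternative settings and was -0.19 with the brightest probe set of each.

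**Figure D2:**
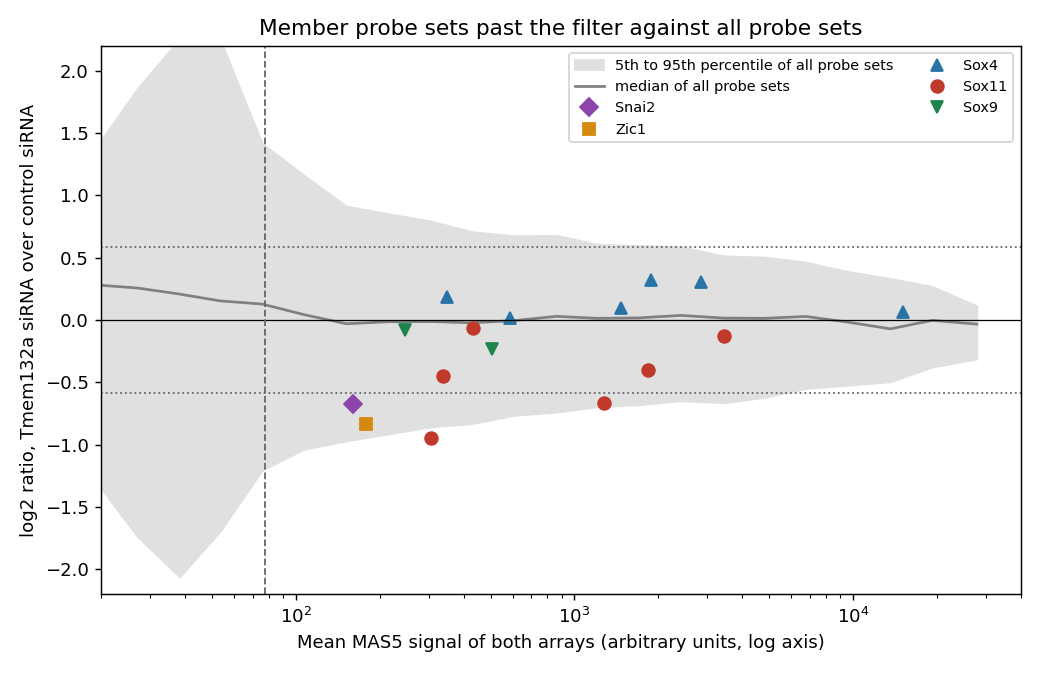
Log2 ratio, Tmem132a siRNA over control siRNA, against mean signal (log axis) for the 16 probe sets past the filter, with the range from the 5th to the 95th percentile of all probe sets in grey, their median as a line, the 1.5-fold sizes dotted and the filter dashed. Sox11 points lie below 0 and Sox4 points above it, nearly all inside the grey range, and the Sox11 set at -0.95 lies just under it.

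Sox9, a SoxE factor needed for crest survival and for cartilage, was little different. Its set 1451538_at had 463.2 on the Tmem132a siRNA array and 544.9 on the control siRNA array (-0.23), and 1424950_at had 240.5 and 253.6 in the same order (-0.08). The gene ratio was -0.16, and 33.6% of all genes had one as low. The last set, 1433889_at, had 4.9 with the Tmem132a siRNA and 27.3 with the control siRNA, too dim to compare. With no filter this set entered, and the Sox9 ratio was -0.41.

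Zic1, a zinc finger factor of the neural plate border, had the lowest gene ratio of the 5 compared. Its set 1423477_at had 128.4 on the Tmem132a siRNA array and 228.4 on the control siRNA array, 1.78-fold lower (log2 ratio -0.83). Its other set, 1439627_at, was below the filter and lay the same way, with 17.7 against 36.8. Of all genes 4.18% had a ratio as low as Zic1. Of probe sets of like signal 7.42% had one as low as 1423477_at. With 79.2 added to each signal as a pseudocount in place of the floor, the ratio was -0.57 and no longer 1.5-fold.

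Snai2, a zinc finger repressor of E-cadherin also called Slug, with a role in crest delamination known from chick embryos, had a gene ratio of -0.68. It rests on 1447643_x_at, a type of probe set with a chance of cross-hybridisation, which had 123.2 on the Tmem132a siRNA array and 196.7 on the control siRNA array, 1.60-fold lower. The set without that suffix, 1418673_at, had 52.4 with the Tmem132a siRNA and 57.1 with the control siRNA and was under the filter. Its log2 ratio of -0.12 was smaller than that of the x set. With no filter the gene ratio was -0.40, with the pseudocount it was -0.45, and Snai2 had no value once x, s and a suffixes were left out. Of all genes 6.64% had a ratio as low as that of Snai2, and of probe sets of like signal 12.0% had one as low as 1447643_x_at.

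The other 5 factors were too dim to compare on these arrays. Snai1, a Snail repressor of epithelial genes, had 37.1 on the Tmem132a siRNA array and 48.4 on the control siRNA array. Twist1, a helix-loop-helix factor of mesenchyme, had 3.7 with the Tmem132a siRNA and 2.1 with the control siRNA, both under the floor of 14.5 used for low signals. Zic2, another zinc finger factor of the border, had 29.9 with the Tmem132a siRNA and 3.3 with the control siRNA. These 3 genes have 1 probe set each.

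Pax3, a paired-box factor of the border and dorsal neural tube, had 3 probe sets that ran in different directions. The set 1441743_at had 43.3 with the Tmem132a siRNA and 98.8 with the control siRNA, while 1430335_a_at had 61.2 and 25.5 and 1420389_at 58.1 and 7.2 in the same order. Tfap2a, which encodes AP-2 alpha, was likewise mixed. Its set 1421995_at had 103.2 with the Tmem132a siRNA and 34.3 with the control siRNA, and 1426048_s_at had 41.7 and 5, while 1421996_at had 8.7 and 18.7. No direction can be given for either gene. Of the 14 probe sets of the 10 factors under the filter, 5 were higher and 3 lower by 1.5-fold or more after the floor was set, and 8 had a signal under the floor on at least 1 array. Among all 22518 probe sets under the filter, 27.1% were higher and 19.2% lower by that size, so that such sizes are common there.

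Related genes were grouped by role, from lists chosen by function. The background for the counts in every list is the share of all genes with a value. Of these, 9.11% were at least 1.5-fold lower and 8.82% at least 1.5-fold higher. Of the paralogues of the 10 factors, 2 of 12 on the array had a value, 0 of them 1.5-fold either way. Sox12, the third SoxC factor, had 339 on the Tmem132a siRNA array and 481.7 on the control siRNA array (log2 ratio -0.51), and Zic5 had a gene ratio of -0.15 over 3 probe sets that ran from -0.34 to 0.21. Sox12 was at -0.27 with no filter, where its dim sets entered. Within the SoxC group, then, Sox11 and Sox12 lay below 0 and Sox4 above it. Sox10, the crest and glial SoxE factor, was under the filter, with at most 82 on the Tmem132a siRNA array and 67.1 on the control siRNA array for its brightest set.

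Of the other crest specifiers and border factors, 8 of 23 had a value, with a median of -0.08, and 1 was at least 1.5-fold lower and 1 at least 1.5-fold higher. Msx1, a homeobox factor downstream of BMP signals, had a ratio of -0.91, from a signal of 78.9 with the Tmem132a siRNA and 148.6 with the control siRNA. Meis3, a TALE homeobox factor, had a ratio of 1.13, with 194.5 with the Tmem132a siRNA and 88.8 with the control siRNA. Each was read by 1 probe set past the filter. That of Msx1 is an s set, of a type that can share sequence with other transcripts, and that of Meis3 is an a set. Neither gene had a value once x, s and a suffixes were left out. With the pseudocount Msx1 lay at -0.53 and Meis3 at 0.70.

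Of the other factors of the mesenchymal transition, 8 of 17 had a value, with a median of -0.11, and 2 were at least 1.5-fold lower and 1 at least 1.5-fold higher. Foxc1, a forkhead factor of mesenchyme, had a ratio of -0.76, with 104.2 on the Tmem132a siRNA array and 176.3 on the control siRNA array, and -0.29 with no filter. Grhl1, a grainyhead factor of epithelia, had a ratio of 1.12, with 215.8 and 99.2 in the same order. Each of these rests on 1 probe set.

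Adhesion and matrix genes of the transition had a median of -0.17 over 9 of 26 genes, with 1 at least 1.5-fold lower and 2 at least 1.5-fold higher. Fn1, which encodes fibronectin, a matrix protein of migrating mesenchymal cells, had a ratio of -0.98 over 2 probe sets at -0.66 and -1.30. The brighter of them had 1712.1 on the Tmem132a siRNA array and 2711.4 on the control siRNA array. Epcam, an epithelial adhesion molecule, had a ratio of 1.04 from an x probe set, with 146.1 with the Tmem132a siRNA and 70.9 with the control siRNA, but 0.12 with no filter. E-cadherin (Cdh1), the classic target of Snail repression, had 24.3 on the Tmem132a siRNA array and 3.6 on the control siRNA array, too dim to compare. Vim, the mesenchymal intermediate filament vimentin, had 30241 and 30599 in the same order for its brightest set and a gene ratio of 0.00, the mean of 3 probe sets.

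Helix-loop-helix partners of Twist factors and the Id proteins that block them all had a value. Of these 8 genes, 6 were below 0, as were 48.2% of all genes, and their median was -0.21. Among them 1 was at least 1.5-fold lower and 1 at least 1.5-fold higher, against 9.11% and 8.82% of all genes. Id3 had a ratio of -0.72, with 2067.2 on the Tmem132a siRNA array and 3405.5 on the control siRNA array. Across the 11 alternatives its ratio lay between -0.73 and -0.70. Id3 has 1 bright probe set, so the filter settings, leaving the floor out and the other gene values could not change that ratio. Hand1 had a ratio of 1.05 from a dim set, with 116.1 and 56 in the same order, and -0.53 with no filter, where the direction turned.

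Neuronal genes reported as targets or partners of SoxC factors had a median of -0.37 over 5 of 12 genes, with 0 at least 1.5-fold either way. Marcks, a substrate of protein kinase C that binds actin, lay at -0.58, with 7 probe sets that ran from -1.48 to 1.43. Marcks was at least 1.5-fold lower in 7 of the 11 alternatives, with a ratio as low as -0.97, so the count of 0 depends on the setting. Stmn2, a microtubule-binding stathmin of neurons, had a ratio of -0.45 over 2 sets, the brighter with 12986 on the Tmem132a siRNA array and 16953 on the control siRNA array. Tubb3, neuronal beta-tubulin, had 3169.2 and 4083.4 in the same order (-0.37).

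Cartilage genes bound by Sox9 were nearly all dim, and 1 of 10 had a value, Col11a2 at 0.54, with 103.6 on the Tmem132a siRNA array and 71.4 on the control siRNA array. Receptors and markers of migrating crest had a median of 0.02 over 8 of 16 genes, with 2 at least 1.5-fold lower and 2 at least 1.5-fold higher. Erbb3, the neuregulin receptor of crest-derived glia, had a ratio of 1.37, with 332.6 with the Tmem132a siRNA and 128.9 with the control siRNA. Sema3f, a repulsive guidance ligand, had a ratio of 1.12 from an x probe set, with 381.5 and 176 in the same order. With no filter Erbb3 was at 0.68 and Sema3f at -0.38, so that the direction of Sema3f turned.

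**Figure D3:**
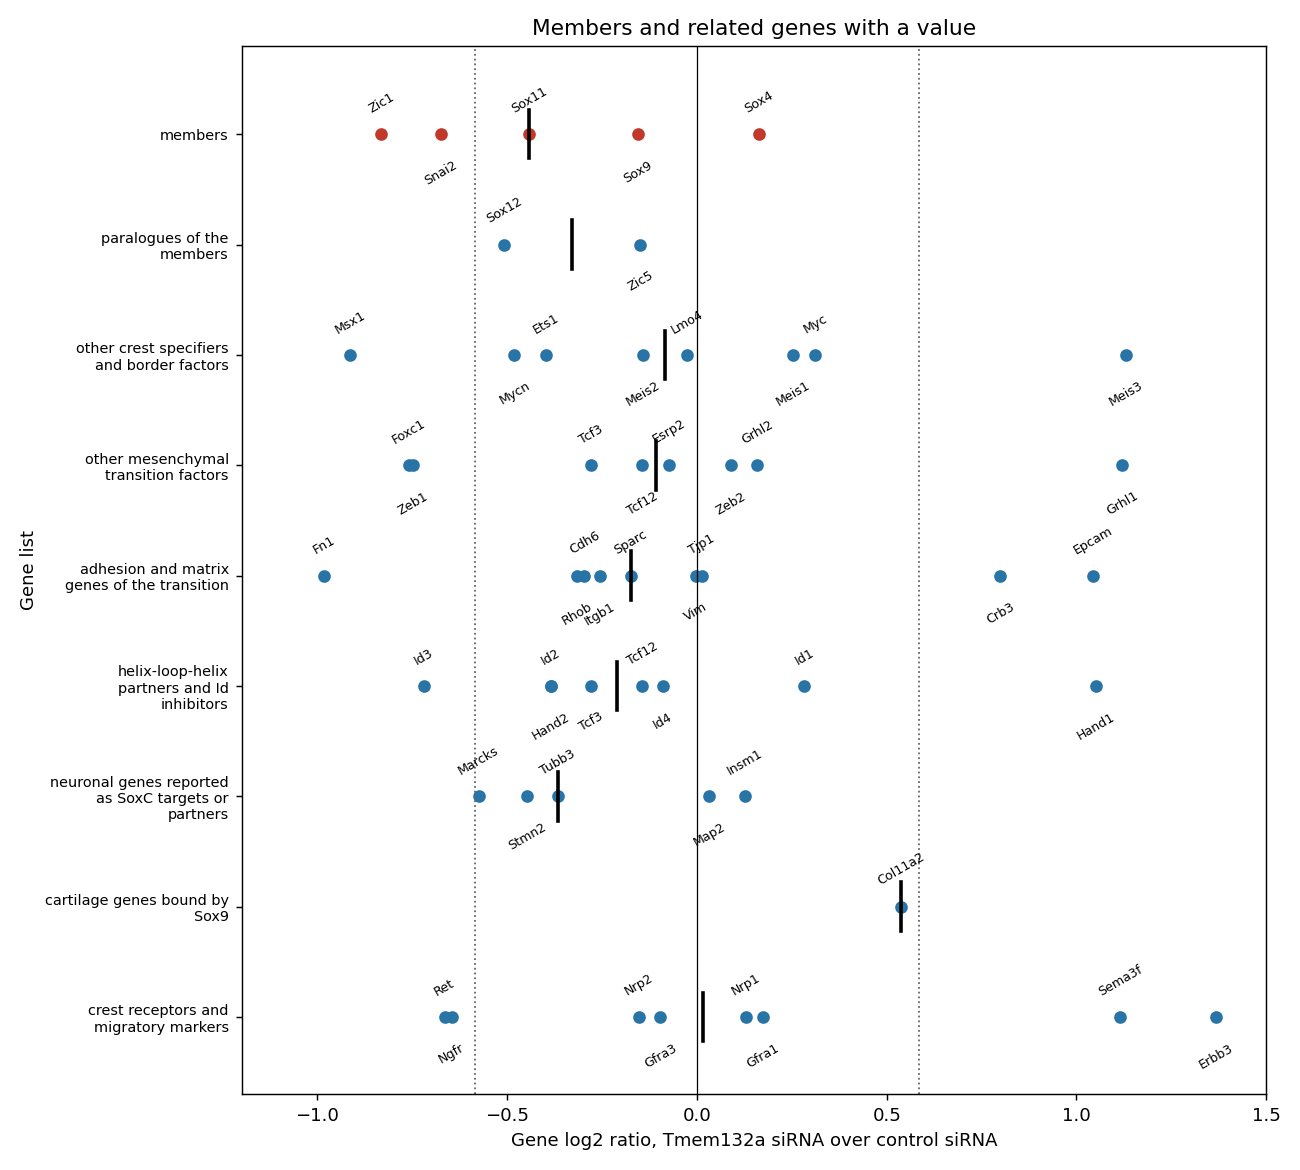
Gene log2 ratio, Tmem132a siRNA over control siRNA, of the 5 factors with a value (top row) and of the genes with a value in 8 lists of related genes, with 1 point per gene, a bar at each row's median and dotted lines at 1.5-fold. The top row has its median at -0.44. The cartilage list, with 1 gene, lies at 0.54, and the medians of the other lists run from -0.37 to 0.02.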

How the data were processed

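The deposited values are linear probe-set signal intensity, made by the authors with MAS5 (per the submitters' processing notes), from 1 array per group. The MAS5 version and scaling are not given in the sources used here. Groups were taken from the sample titles.

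Computation used Python 3.11.15 with numpy 2.4.6, pandas 2.3.3, statsmodels 0.14.6 and matplotlib 3.10.9. Of 45101 probe sets, 64 controls were left out. The arrays were set to 1 trimmed mean (2% at each end; 497.4 on both before this step). Signals under the 20th percentile (14.5) were set to it. The platform annotation gave 34945 probe sets 1 gene symbol and 932 several, and 9160 were unnamed. A total of 22519 probe sets passed the filter at the median signal, giving 10678 genes a value, the mean log2 ratio of their probe sets. Probe sets of 1 gene had an SD of 0.39 around their mean over 5072 genes. Tried as alternatives were 4 other scalings (none, median ratio of 0, quantile and loess with a span of 0.3), no filter, a threshold of 462.8 (the 75th percentile), leaving the floor out, replacing it with a pseudocount of 79.2, and 3 other gene values (brightest probe set, median, and leaving out x, s and a suffixes). The procedure was tested on simulated data.

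Every one of the 10 factors is named. Of each of the 8 lists of related genes, up to 3 genes past 2-fold are named, or the 2 largest where fewer than 2 passed. Cdh1, Vim, Tubb3, Sox10, the named cell type markers and the genes of the closing section were chosen after their values were seen. The factors and lists were chosen with earlier results of these data known.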

Additional observations from a re-analysis of the deposited data

How the results depend on the processing

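The directions of Sox4, Sox11, Sox9, Snai2 and Zic1 did not turn in any of the 11 alternatives that gave them a value. All alternatives reuse the same arrays. Snai2 and Zic1 each rest on 1 probe set past the filter, so leaving the floor out and the brightest and median gene values could not change them. Sox11 ran from -0.52 to -0.13 and Sox4 from 0.06 to 0.19. The number of the 10 factors at least 1.5-fold lower, 2 in the values above, was 1 with no filter, 0 with the 75th percentile filter, which left 3 of the factors, 0 with the pseudocount, and 1 when probe sets with x, s or a suffixes were left out, which left 4. Over all genes with a value, the share at least 1.5-fold lower also moved with the setting. It was 12.1% with no filter, 6.74% with the 75th percentile filter, 5.16% with the pseudocount and 9.75% without those suffixes. With no filter 3 of the factors were higher by 1.5-fold or more and 1 of them by 2-fold or more, all from probe sets under the filter. In that setting 16% of all genes were 1.5-fold or more higher. The median of -0.44 was -0.19 with no filter, -0.23 with the 75th percentile filter and -0.23 with the brightest probe set. The 4 scalings changed none of these counts. No paired analysis was possible because each group has 1 array. Low signal limits Snai1, Twist1, Zic2, Pax3 and Tfap2a.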

Other observations

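Further genes of the same lists, chosen after their values were seen, lay in both directions. Crb3, an epithelial polarity protein, had a gene ratio of 0.80 over 2 probe sets at 0.23 and 1.37. The brighter had 177.9 on the Tmem132a siRNA array and 151.7 on the control siRNA array. Crb3 has 3 probe sets, the last of them under the filter, and its ratio in the alternative settings is not given here. Other genes of the same lists differed less by gene value, among them Tjp1 (0.01), Esrp2 (-0.07) and Grhl2 (0.16). The 2 probe sets of Grhl2 past the filter were at -0.41 and 0.73. Zeb1, a repressor of epithelial genes, had 560.8 on the Tmem132a siRNA array and 1192.8 on the control siRNA array by its brighter set (log2 ratio -1.09). The other set past the filter was at -0.41, and the gene ratio of Zeb1 was -0.75. With no filter it was -0.47. Its relative Zeb2 had a gene ratio of 0.09 over 4 probe sets that ran from -0.23 to 0.49. The tyrosine kinase receptor Ret had a gene ratio of -0.67 over 2 probe sets at -0.87 and -0.46, so 1 of them was not 1.5-fold lower. The brighter had 2950.8 on the Tmem132a siRNA array and 5381.8 on the control siRNA array. The gene ratio of Ret stayed at least 1.5-fold lower in all 11 alternatives. The neurotrophin receptor Ngfr had a gene ratio of -0.65 over 2 probe sets at -0.92 and -0.37, and -0.43 with no filter. Its brighter set had 890.8 on the Tmem132a siRNA array and 1687.2 on the control siRNA array.

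Dim probe sets of related factors differed in both directions. Foxd3 had 8.4 on the Tmem132a siRNA array and 58.8 on the control siRNA array, and Twist2 had 9.9 and 93.4 in the same order. Foxq1 had 108.8 with the Tmem132a siRNA and 7.3 with the control siRNA, and Gli3 had 78.6 and 4.8. All 4 lay under the filter.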
